A study of Mus musculus with 9 samples.

Results

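The circadian clock genes described here are Arntl, Clock and Npas2, which encode the activators of the molecular clock, and Per1, Per2, Per3, Cry1, Cry2, Nr1d1 and Dbp, which the activators switch on and most of which feed back on them. They were taken by symbol: every probe named for 1 of these 10 genes was used, on all 9 arrays and in both channels. That gave 14 of 39464 probes and 10 of 25756 named genes. Per3, Cry1, Nr1d1 and Dbp had 2 probes each and the other 6 genes had 1, all 14 probes had values on every array, and all 10 genes entered the test.

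The study profiled whole lungs of BALB/c mice about 12 weeks old on Agilent arrays of 2 colours. By the labels, 5 arrays carry lungs of mice challenged with ovalbumin (OVA), a protein used to provoke allergic inflammation of the airways, and 4 arrays carry lungs of mice given phosphate-buffered saline (PBS). On every array channel 2 is labelled as the lung named, and channel 1 as RNA combined from the PBS-treated lungs. The labels describe inflammation and airway hyperresponsiveness in the OVA mice, and the sources used here give neither the number of challenges nor the time of day at which the lungs were taken.

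The channels of the PBS arrays went against these labels. Clca1, a gene of mucus-producing airway cells that is known to rise strongly in allergic airways, had an intensity of 36.4 ± 2.03 in channel 2 and 0.362 ± 0.0642 in channel 1 on the OVA arrays (SD, n = 5). On the PBS arrays, Clca1 had 33.3 ± 3.84 in channel 2 and 33.6 ± 1.20 in channel 1 (SD, n = 4). Channel 1 of the arrays labelled OVA was thus the channel that stood apart in value, and its low Clca1 goes with its label of PBS RNA. Both channels of the PBS arrays are labelled as PBS RNA too, yet had Clca1 near the level of channel 2 of the OVA arrays. Which RNA each channel held cannot be told from these files. A change is therefore given below as that of the deposited log2 ratio of channel 2 over channel 1, in the arrays labelled OVA minus the arrays labelled PBS, and counts of calls are also given with the sign of the OVA ratios turned. The total intensity of a channel lay between 41722 and 43610 on all arrays. The intensities were already scaled and carry no unit, and for this reason levels are compared between arrays and channels of 1 probe and never between probes.

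In the mammalian clock, CLOCK or its relative NPAS2 pairs with ARNTL (also called BMAL1) and binds E-box motifs to switch on the Per and Cry genes. PER and CRY proteins return to the nucleus and block their own activators, which closes a loop of about a day. NR1D1 (REV-ERB alpha) represses Arntl, and DBP acts on D-box motifs. In peripheral tissues such as the lung, Arntl RNA and the RNAs of Dbp, Nr1d1 and the Per genes therefore peak at opposite times of day.

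The motifs of this loop were searched in the promoter windows of a RefSeq table of the mouse genome (GRCm38.p6), on both strands. Windows were found for 9 of the 10 genes, 13 windows in all; Per2 was the exception. The E-box (CACGTG) stood in 7.15% of all 32851 windows of the same length, the D-box (TTATGNAA) in 3.38% and the response element of ROR and REV-ERB proteins (RORE, searched as ANTNGGTCA) in 2.24%. No motif overlapped another in the windows of these genes. An E-box was found in windows of 2 of the genes, a D-box in 2 and an RORE in 1. These matches are given because they are the letters through which the members are known to act on each other, with the motif in capitals; a match is a description and no evidence of binding in these lungs.
Arntl, RORE (chr7:113207530-113207559, plus strand): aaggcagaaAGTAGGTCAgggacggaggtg
Cry1, E-box (chr10:85185079-85185144, minus strand): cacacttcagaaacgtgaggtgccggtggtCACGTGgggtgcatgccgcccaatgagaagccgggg
Per1, E-box (chr11:69098753-69098818, plus strand): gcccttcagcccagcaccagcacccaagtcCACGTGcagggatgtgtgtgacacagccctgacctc
Per1, D-box (chr11:69098895-69098948, plus strand): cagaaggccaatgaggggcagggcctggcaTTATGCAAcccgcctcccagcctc
Per3, D-box (chr4:151044833-151044900, minus strand): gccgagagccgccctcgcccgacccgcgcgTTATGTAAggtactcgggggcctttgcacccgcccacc
Counted from the annotated start of the transcript, the Arntl motif begins at position 29, the Cry1 motif at -60, the Per1 motifs at -166 and -24, and the Per3 motif shown at -205, with a second Per3 D-box at -158.

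The deposited ratio of 5 of the 10 clock genes was lower in the OVA arrays than in the PBS arrays, and that of none was higher (limma, adjusted p under 0.05 over 25715 genes). The 5 were Clock and Npas2 of the 3 activators and Cry1, Cry2 and Nr1d1 of the 7 other genes. Of all genes tested, 40.3% were called in either direction, 17.3% higher and 23% lower, so the number of clock genes called was near the background and the number called lower above it. All 10 fitted changes were negative, with a median log2 change of -0.31, against -0.02 over all genes. The ranges of the groups did not overlap for 4 genes (Clock, Cry1, Cry2 and Nr1d1), each lower in the OVA arrays; of all genes, 34.5% did not overlap and 19.7% did so with the OVA arrays lower. Whole lung was measured, so that a difference in the number of cells of a type and a difference in RNA per cell cannot be told apart.

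Taken alone, channel 1 gave calls among these genes and channel 2 gave none. In channel 1 alone, 3 clock genes were called, all higher in the OVA arrays (Clock, Cry2 and Nr1d1), with a background of 27.6% called, 15.6% higher and 12% lower. In channel 2 alone no clock gene was called, the lowest adjusted p being 0.874, and over all genes limma called 2 (0.00778%), with 930 at an unadjusted p under 0.05. With the OVA ratios turned in sign, 4 clock genes were called and all were higher (Clock, Npas2, Cry2 and Nr1d1), with a background of 39% called, 22.5% higher and 16.5% lower. The direction of each change below is that of the deposited ratio. For all 10 clock genes it reverses if the channels of the OVA arrays were exchanged. The order of the intensities does not turn with it. In channel 1 of the OVA arrays, where Clca1 was low, the mean was 10.1 for Cry2 and 1.25 for Nr1d1. In the other channel groups the means were 5.17 to 5.65 for Cry2 and 0.56 to 0.59 for Nr1d1.

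**Figure D1:**
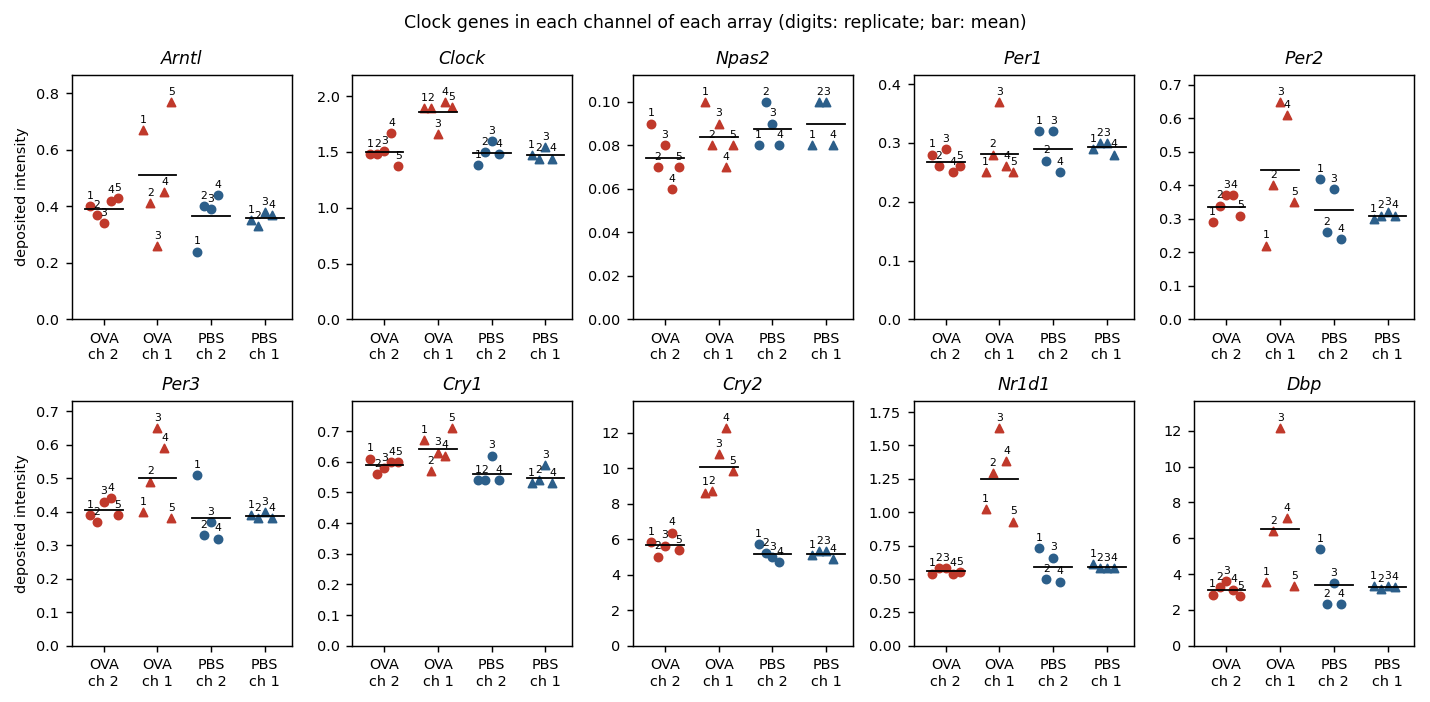
Deposited intensity of the 10 clock genes (y axis, no unit, from 0) in channel 2 (circles) and channel 1 (triangles) of the 5 arrays labelled OVA (red) and the 4 labelled PBS (blue), with replicate numbers and the mean as a bar. Channel 1 of the OVA arrays stands above the other 3 channel groups for Cry2 and Nr1d1 and reaches 12.16 for Dbp.

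Arntl, which encodes the partner of CLOCK and NPAS2, varied widely from array to array and did not pass the test. Its intensity in OVA arrays 1 to 5 was 0.40, 0.37, 0.34, 0.42 and 0.43 in channel 2 and 0.67, 0.41, 0.26, 0.45 and 0.77 in channel 1. In PBS arrays 1 to 4 it was 0.24, 0.40, 0.39 and 0.44 in channel 2 and 0.35, 0.33, 0.38 and 0.37 in channel 1. The OVA arrays were high in channel 1 in replicates 1 and 5 and low in replicate 3, a 2.96-fold range, and PBS replicate 1 was the low sample of its channel 2. The log2 ratio averaged -0.29 ± 0.51 in the OVA arrays and 0.01 ± 0.38 in the PBS arrays (SD, n = 5 and 4), and the groups overlapped. The log2 change was -0.29 ± 0.28 (SE) with an adjusted p of 0.463. It was -0.18 without OVA array 1, -0.46 without OVA array 3, -0.16 without OVA array 5 and -0.48 without PBS array 1.

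Clock, which encodes the DNA-binding partner of ARNTL, showed a small difference. The deposited p of the single array was under 0.01 for Clock on 0 of 5 OVA arrays and 0 of 4 PBS arrays. The log2 ratio of Clock ran from -0.47 to -0.14 in the OVA arrays and from -0.09 to 0.06 in the PBS arrays. Its intensity in OVA arrays 1 to 5 was 1.48, 1.48, 1.51, 1.67 and 1.37 in channel 2 and 1.89, 1.89, 1.66, 1.95 and 1.90 in channel 1. In PBS arrays 1 to 4 it was 1.38, 1.5, 1.6 and 1.48 in channel 2 and 1.47, 1.44, 1.54 and 1.44 in channel 1. Channel 1 of the 5 OVA arrays lay above every value of channel 1 of the PBS arrays, and the channel 2 ranges overlapped. The log2 change of the ratio was -0.32 ± 0.07 (SE, adjusted p = 0.00577), and in channel 1 alone it was 0.33 with an adjusted p of 0.00453. With OVA arrays 2 and 4 and PBS array 2 left out together, the change was -0.32 and the call was lost (adjusted p = 0.0719). OVA array 2 had the highest sum of skeletal muscle markers, and OVA array 4 and PBS array 2 the highest sums of fat markers, as given further below. With these 3 arrays left out, 32% of all genes were called, 13.8% higher and 18.2% lower.

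Npas2, a relative of Clock that can take its place, was read close to the rounding step of 0.01 of the deposited values. It lay between 0.06 and 0.09 in channel 2 and between 0.07 and 0.10 in channel 1 on the OVA arrays, and between 0.08 and 0.10 in both channels of the PBS arrays. All 4 ranges overlapped. The log2 change of -0.15 ± 0.04 (SE, adjusted p = 0.0119) therefore stands for differences of 1 step per array: channel 2 was 0.01 below channel 1 on each of the 5 OVA arrays and on 1 PBS array, and equal to it on the other PBS arrays. The call was lost with the 3 arrays named above left out (adjusted p = 0.143).

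The Per genes encode the proteins that, with CRY, hold the activators in check, and none of the 3 passed the test. Per2 had intensities of 0.29, 0.34, 0.37, 0.37 and 0.31 in channel 2 and 0.22, 0.40, 0.65, 0.61 and 0.35 in channel 1 of OVA arrays 1 to 5. On the PBS side Per2 had 0.42, 0.26, 0.39 and 0.24 in channel 2 and 0.30, 0.31, 0.32 and 0.31 in channel 1. Channel 1 of the OVA arrays thus ran from below to above all other samples, highest in replicates 3 and 4 and lowest in replicate 1, and the ratios of the groups overlapped. The log2 change of Per2 was -0.35 ± 0.28 (SE, adjusted p = 0.386). It was -0.52 without OVA array 1, -0.22 without OVA array 3 and -0.20 without PBS array 1.

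Per3 had 0.39, 0.37, 0.43, 0.44 and 0.39 in channel 2 and 0.40, 0.49, 0.65, 0.59 and 0.38 in channel 1 of OVA arrays 1 to 5. Across the PBS arrays, in the same order, Per3 had 0.51, 0.33, 0.37 and 0.32 in channel 2 and 0.39, 0.38, 0.40 and 0.38 in channel 1. Its high arrays were those of Per2 in the OVA group, replicates 3 and 4, and PBS replicate 1 was the high sample of the PBS group for both genes. The fitted value for Per3 was -0.24 ± 0.18 log2 units (SE, adjusted p = 0.327), -0.097 without PBS array 1 and -0.087 with both probes averaged. Its second probe lay between 0.03 and 0.06 everywhere, too close to the rounding step to show a change of this size.

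Per1 lay between 0.25 and 0.29 in channel 2 and between 0.25 and 0.37 in channel 1 on the OVA arrays, with its highest value again in channel 1 of replicate 3. In the PBS arrays it lay between 0.25 and 0.32 in channel 2 and between 0.28 and 0.30 in channel 1. Per1 had the smallest fitted value (log2 change -0.04 ± 0.11, SE, adjusted p = 0.83), and its sign turned when OVA array 3 was left out (0.03) or PBS array 1 was left out (0.02).

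The cryptochromes, the strongest of the loop's repressors, were both called lower in the deposited ratio. Cry2 had 5.83, 5.02, 5.64, 6.37 and 5.39 in channel 2 and 8.63, 8.73, 10.78, 12.27 and 9.85 in channel 1 of OVA arrays 1 to 5. The PBS arrays had Cry2 values of 5.72, 5.23, 5.01 and 4.71 in channel 2 and 5.11, 5.33, 5.34 and 4.90 in channel 1. Channel 1 of every OVA array lay above all 13 other Cry2 values, and the other 3 channel groups overlapped. The ratio was 1.76-fold lower in the OVA arrays (log2 change -0.82 ± 0.09, SE, adjusted p = 0.000126), and in channel 1 alone Cry2 was 1.93-fold higher in the OVA arrays (adjusted p = 0.000193). The deposited p-value of the single array was under 0.01 for Cry2 on 5 of 5 OVA arrays and 0 of 4 PBS arrays.

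Cry1 differed far less and its call depended on the arrays used. It lay between 0.56 and 0.61 in channel 2 and between 0.57 and 0.71 in channel 1 on the OVA arrays, and between 0.54 and 0.62 in channel 2 and 0.53 and 0.59 in channel 1 on the PBS arrays. The log2 change of the ratio was -0.15 ± 0.04 (SE, adjusted p = 0.0309), with ratios that did not overlap between the groups. Leaving out OVA array 1 or 3 or PBS array 1, 3 or 4 ended the call, with changes of -0.14, -0.14, -0.15, -0.13 and -0.15 and adjusted p of 0.0603, 0.0567, 0.0647, 0.0815 and 0.0652. The second Cry1 probe, tested as a probe of its own in a fit where 33.9% of probes were called and 18.9% were called lower, had a log2 value of -0.12 and did not pass (adjusted p = 0.117).

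Nr1d1, the nuclear receptor that represses Arntl, had the largest difference of the 10 genes. Its intensity was 0.54, 0.58, 0.58, 0.54 and 0.55 in channel 2 and 1.02, 1.29, 1.63, 1.38 and 0.93 in channel 1 of OVA arrays 1 to 5. In PBS arrays 1 to 4 it was 0.73, 0.50, 0.66 and 0.48 in channel 2 and 0.61, 0.58, 0.58 and 0.58 in channel 1. Every OVA array was, in channel 1, above all other values, and within it replicate 3 was highest and replicates 5 and 1 lowest. The ratio was 2.18-fold lower in the OVA arrays (log2 change -1.12 ± 0.18, SE, adjusted p = 0.00122), and channel 1 alone was 2.08-fold higher in the OVA arrays (adjusted p = 0.000767). The second Nr1d1 probe differed in the same direction (log2 change -0.66, adjusted p = 0.000567), at intensities of 0.05 to 0.11.

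Dbp, an output gene driven through E-boxes that encodes an activator of D-box genes, had the widest range. Its intensity was 2.85, 3.28, 3.6, 3.13 and 2.79 in channel 2 and 3.57, 6.40, 12.16, 7.14 and 3.31 in channel 1 of OVA arrays 1 to 5. In PBS arrays 1 to 4 it was 5.38, 2.33, 3.49 and 2.31 in channel 2 and 3.31, 3.17, 3.34 and 3.27 in channel 1. Channel 1 of the OVA arrays spanned 3.67-fold, with replicate 3 high and replicates 1 and 5 beside the PBS arrays. Channel 2 of the PBS arrays spanned 2.33-fold, with replicate 1 high. Channel 1 of the PBS arrays, by contrast, spanned 1.05-fold.

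The log2 ratio of Dbp averaged -0.90 ± 0.63 in the OVA arrays and -0.05 ± 0.56 in the PBS arrays (SD, n = 5 and 4), and the groups overlapped. The log2 change of -0.85 ± 0.37 (SE) did not pass the test (adjusted p = 0.111). The second Dbp probe, with a smaller spread, passed on its own (log2 change -0.66 ± 0.15, SE, adjusted p = 0.0112) and its groups did not overlap. With the 2 probes averaged, the gene passed too (log2 change -0.75, adjusted p = 0.0478). The deposited p of the single array was under 0.01 for the brighter probe on 3 of 5 OVA arrays and on 3 of 4 PBS arrays, so that single PBS arrays differed from their own channel 1 as well.

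**Figure D2:**
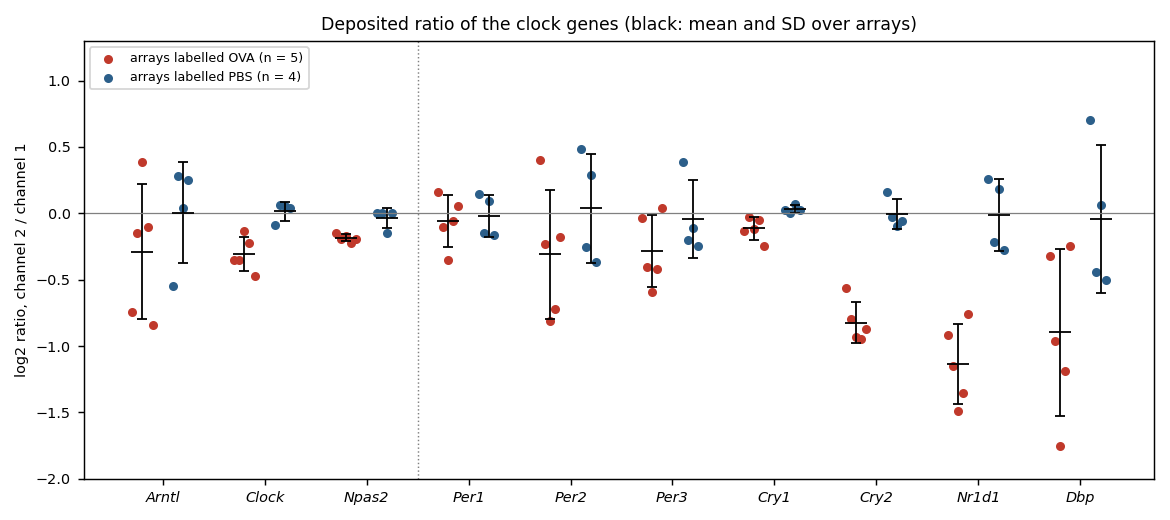
Deposited log2 ratio of channel 2 over channel 1 (y axis) for the 3 activators, left of the dotted line, and the 7 other clock genes, on the 5 arrays labelled OVA (red) and the 4 labelled PBS (blue); black marks are the mean and SD over arrays. Clock, Cry1, Cry2 and Nr1d1 do not overlap between the groups, while Arntl, Per2 and Dbp spread widely in both.

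Set side by side, both arm means were lower in the OVA arrays than in the PBS arrays, and the distance between the arms did not separate the groups. The mean log2 ratio of the 3 activators was -0.26 ± 0.21 in the OVA arrays and -0.01 ± 0.15 in the PBS arrays. The mean of the 7 other genes was -0.52 ± 0.27 in the OVA arrays and -0.01 ± 0.25 in the PBS arrays (SD, n = 5 and 4). The activator mean minus the mean of the other genes was -0.21, 0.30, 0.89, 0.49 and -0.19 in OVA arrays 1 to 5 and -0.52, 0.30, -0.09 and 0.32 in PBS arrays 1 to 4. Both groups held values on either side of 0, and the difference of their means was 0.25, smaller than the SD of 0.47 in the OVA arrays and 0.40 in the PBS arrays. No p is given for these means, because the genes were chosen with earlier results known.

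Within each group, Arntl and the brighter Dbp probe ran in nearly opposite order. In channel 1 of the OVA arrays, Arntl was lowest and this Dbp probe highest in replicate 3. Arntl was highest and this probe lowest in replicates 5 and 1, while between replicates 2 and 4 both were slightly higher in 4. The second Dbp probe had 0.97, 0.73, 1.19, 1.08 and 0.91 in channel 1 of OVA arrays 1 to 5, highest in replicate 3 but lowest in replicate 2. In channel 2 of the PBS arrays, Arntl rose and the brighter Dbp probe fell over replicates 1, 3, 2 and 4. This order holds near ties: Arntl had 0.39 and 0.40 in replicates 3 and 2, and Dbp 2.33 and 2.31 in replicates 2 and 4. The second Dbp probe did not mirror Arntl there, with 0.76, 0.56, 0.64 and 0.67 in PBS arrays 1 to 4. As a log2 ratio, Arntl minus the brighter Dbp probe was -0.42, 0.82, 2.14, 1.09 and -0.59 in OVA arrays 1 to 5. In PBS arrays 1 to 4 it was -1.25, 0.72, -0.03 and 0.75. These are 5 and 4 arrays, and the orders are a description with no test.

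The 7 genes other than the activators were also read by sign on each array. On OVA arrays 2, 3 and 4 all 7 of the other clock genes had a ratio below 0, and on arrays 1 and 5 it was 5 of 7. On PBS array 1 all 7 had a ratio above 0, on PBS array 3 it was 5 of 7, on PBS array 4 it was 1, and on PBS array 2 it was none, with 6 below 0. For the brighter Dbp probe the range within a group was larger than the distance between the groups. Its ratio differed by 1.51 log2 units between the highest and lowest OVA array and by 1.20 between the highest and lowest PBS array. The group means were 0.85 apart. For the second Dbp probe the range was 0.68 in the OVA arrays and 0.31 in the PBS arrays, beside a log2 change of -0.66.

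**Figure D3:**
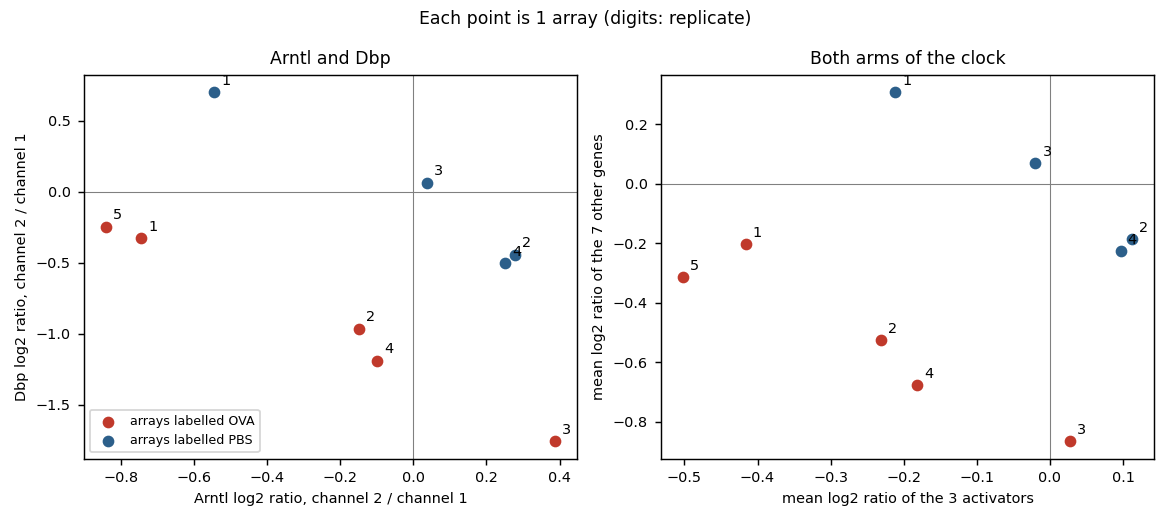
Each point is 1 array, red for the 5 labelled OVA and blue for the 4 labelled PBS, with its replicate number; all axes are log2 ratios of channel 2 over channel 1. Left, Dbp (y) against Arntl (x); right, the mean of the 7 other clock genes (y) against the mean of the 3 activators (x), and within each group the points run from upper left to lower right, from OVA arrays 5 and 1 to OVA array 3 and from PBS array 1 to PBS arrays 2 and 4.

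The spread between arrays was compared with that of 12830 genes whose mean intensity was at least 0.2, which 9 of the 10 clock genes reached (Npas2 did not). In channel 1 of the OVA arrays, the SD of log2 intensity was 0.77 for Dbp, 0.64 for Per2 and 0.62 for Arntl, against a median gene of 0.14. These stood at percentiles 99.5, 99.3 and 99.3, with Per3 at 93.5 and Nr1d1 at 92.9. In channel 2 of the PBS arrays, the order was the same at the top, with an SD of 0.58 for Dbp, 0.41 for Per2 and 0.39 for Arntl, at percentiles 99.3, 97.5 and 97.2. Clock was at percentile 19.6 in channel 1 on the OVA arrays and 34.1 in channel 2 on the PBS arrays, and Cry1 at 36.7 and 42.2. Clock RNA is known to be nearly steady over the day in many tissues. Percentiles over genes of the same arrays are a description.

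The same genes spread less in the remaining channels. In channel 1 of the PBS arrays the SD of Dbp was 0.03, at percentile 7.23, that of Per2 0.04, at percentile 10.3, and that of Arntl 0.09, at percentile 60.9. In channel 2 of the OVA arrays the SD was 0.16 for Per2, 0.15 for Dbp and 0.14 for Arntl, above the median gene at percentiles 71.6, 70.1 and 66.3, and 0.05 for Nr1d1, at percentile 11.6. Of the 9 clock genes, 8 had a wider spread in channel 1 than in channel 2 within the OVA group, as did 67.2% of the 12830 genes, and Clock was the exception. In the PBS arrays all 9 had a wider spread in channel 2 than in channel 1, as did 69.2% of the genes. The channel with the wide clock values was therefore channel 1 in the OVA arrays and channel 2 in the PBS arrays.

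**Figure D4:**
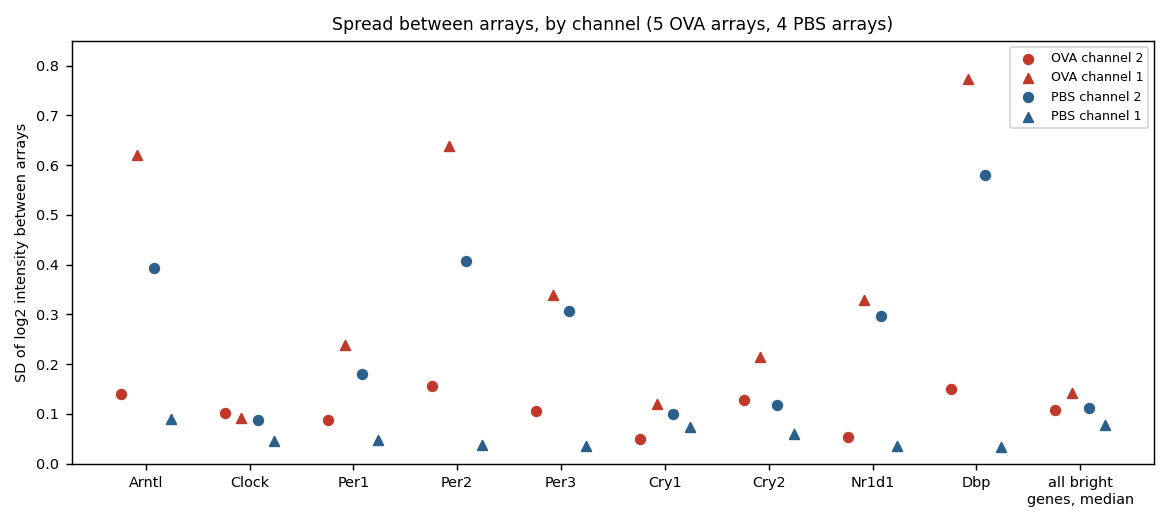
SD of log2 intensity between arrays (y axis, from 0) for the 9 clock genes with a mean intensity of at least 0.2 and, at the right, the median of all 12830 such genes; red for the 5 arrays labelled OVA, blue for the 4 labelled PBS, circles for channel 2 and triangles for channel 1. Dbp, Per2 and Arntl stand highest in channel 1 on the OVA arrays (0.77, 0.64 and 0.62) and in channel 2 on the PBS arrays (0.58, 0.41 and 0.39).

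Genes that tie further loops to the core clock were then read from a list of 12, of which 11 were on the array and Nr1d2 was not. In the deposited ratio 2 were called higher, 5 lower and 4 did not pass, with a median log2 change of -0.17, against 17.3% higher and 23% lower over all genes. With the OVA ratios turned, 5 were called higher and 2 lower, against 22.5% and 16.5% over all genes. With the 3 arrays named above left out, 2 were called higher and 1 lower, against 13.8% and 18.2% over all genes. The lower ones held 2 of Dbp's relatives that bind the same D-box, Hlf (log2 change -0.90 ± 0.23, SE, adjusted p = 0.0135) and Tef (-0.50 ± 0.16, adjusted p = 0.0337). Nfil3, which encodes the repressor that competes with them, was called higher (1.21 ± 0.15, adjusted p = 0.000314) at intensities of 0.08 to 0.09 in channel 2 and 0.03 to 0.05 in channel 1 on the OVA arrays, a few rounding steps.

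Hlf ran in nearly the order of Dbp. It had 0.40, 0.44, 0.48, 0.53 and 0.46 in channel 2 and 0.58, 0.84, 1.21, 1.17 and 0.69 in channel 1 of OVA arrays 1 to 5, and 0.58, 0.37, 0.43 and 0.32 in channel 2 and 0.41, 0.43, 0.41 and 0.42 in channel 1 of PBS arrays 1 to 4. The high samples were again channel 1 of OVA replicate 3 and channel 2 of PBS replicate 1. Tef likewise had its highest intensity, 1.81, in channel 1 of OVA replicate 3, and its highest value in channel 2 on the PBS arrays, 1.17, in replicate 1.

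Bhlhe40 and Bhlhe41 (DEC1 and DEC2) encode repressors that compete for E-boxes, and they went apart. Bhlhe40 had 2.92, 3.00, 3.01, 4.03 and 2.87 in channel 2 and 1.23, 1.35, 1.58, 1.78 and 1.08 in channel 1 of OVA arrays 1 to 5. For the PBS arrays, Bhlhe40 had 3.06, 2.88, 3.04 and 2.81 in channel 2 and 2.78, 2.93, 3.14 and 2.85 in channel 1. The OVA arrays were, in channel 1, below all other values, the opposite side from Nr1d1 and Cry2, and the log2 change of the ratio was 1.17 ± 0.09 (SE, adjusted p = 1.94e-05). Bhlhe41, listed in the files under an older symbol, changed by -0.38 ± 0.12 (adjusted p = 0.0346) at 0.09 to 0.18.

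The ROR receptors activate Arntl through the element that NR1D1 also binds. Rora had 0.40, 0.40, 0.40, 0.50 and 0.45 in channel 2 and 0.57, 0.71, 0.61, 0.87 and 0.73 in channel 1 of OVA arrays 1 to 5, and lay between 0.37 and 0.43 in both channels of the PBS arrays. Its log2 change was -0.77 ± 0.08 (SE, adjusted p = 0.000118). Rorb did not pass (0.06, adjusted p = 0.657), nor did Arntl2, a relative of Arntl (0.11, adjusted p = 0.294). Ciart, a repressor of CLOCK and ARNTL listed under an older symbol, had a fitted value of -0.17 and did not pass (adjusted p = 0.0604), while Cipc, which encodes another inhibitor of CLOCK, was called lower (-0.25 ± 0.06, adjusted p = 0.0121).

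**Figure D5:**
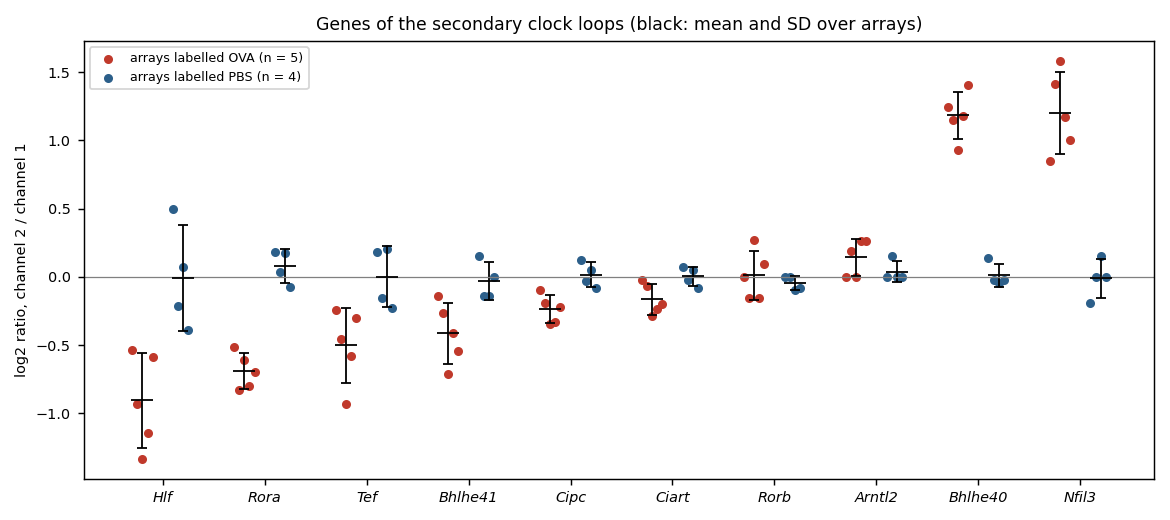
Deposited log2 ratio of channel 2 over channel 1 (y axis) for 10 genes of the secondary clock loops, ordered by their change, on the 5 arrays labelled OVA (red) and the 4 labelled PBS (blue); black marks are the mean and SD. Hlf, Rora, Tef and Cipc lie below the PBS arrays and Bhlhe40 and Nfil3 above them.

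Of 12 genes for the kinases and ubiquitin enzymes that set the lifetime of PER and CRY proteins, 3 were called higher, 5 lower and 4 did not pass, with a median log2 change of -0.09, against the same 17.3% and 23%. With the OVA ratios turned, 4 were called higher and 2 lower, against 22.5% and 16.5% over all genes. The casein kinases that phosphorylate PER went apart, with Csnk1e lower (log2 change -0.45 ± 0.04, SE, adjusted p = 3.39e-05) and Csnk1d higher (0.31 ± 0.06, adjusted p = 0.00202). Btrc, which marks PER proteins, was lower (-0.33 ± 0.05, adjusted p = 0.00105), as was Prkaa2, a subunit of the energy sensor AMPK, at 0.05 to 0.08 (-0.29 ± 0.10, adjusted p = 0.0497). The call of Prkaa2 was lost with the OVA ratios turned (0.05, adjusted p = 0.741). With the 3 arrays left out, 1 gene of the list was called higher and 4 lower, against 13.8% and 18.2%.

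Of 12 outputs and cofactors of the clock, 4 were called higher, 4 lower and 4 did not pass, with a median log2 change of 0.08, again against 17.3% and 23%. With the OVA ratios turned, 4 were called higher and 4 lower, against 22.5% and 16.5%. With the 3 arrays left out 2 were called higher and 3 lower, against 13.8% and 18.2%. Klf9, a transcription factor that responds to glucocorticoids, was lower (-0.81 ± 0.12, SE, adjusted p = 0.000755). Sirt1, a deacetylase, was lower too (-0.44 ± 0.04, adjusted p = 9.26e-05), as were Por, the reductase that serves cytochrome P450 enzymes (-0.41 ± 0.06, adjusted p = 0.000593), and Alas1, the first enzyme of haem synthesis (-0.41 ± 0.09, adjusted p = 0.007). Tfrc, the transferrin receptor, was higher (1.11 ± 0.16, adjusted p = 0.000729), at 0.06 to 0.07 in channel 2 and 0.02 to 0.04 in channel 1 on the OVA arrays. These genes have many inputs beside the clock, and the members of all 3 lists went both ways.

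Markers of cell types and of neighbouring tissues differed between the same channels. Leukocyte markers were called higher for 4 and lower for none (9 tested of 12 listed), against 17.3% and 23% over all genes. Siglecf and Ly6g were not on the array, and Itgam was on it but not tested. With the OVA ratios turned, 4 leukocyte markers were called lower and none higher, against 16.5% and 22.5%. The summed intensity of the leukocyte markers was 28.6 to 29.5 in channel 2 and 9.77 to 11.5 in channel 1 on the OVA arrays. On the PBS arrays it was 28.6 to 29.8 in channel 2 and 28.4 to 29.7 in channel 1. Lung cell markers were called higher for 2 and lower for 5 (8 tested of 12 listed), against the same 17.3% and 23%. Ager and Scgb1a1 were not on the array, and Sftpc and Sftpb were on it but not tested. With the OVA ratios turned, 4 lung cell markers were called higher and 2 lower, against 22.5% and 16.5%. The sums of the lung cell markers were 80.1 to 83.8 in channel 2 and 101 to 114 in channel 1 on the OVA arrays. On the PBS arrays they were 80.6 to 90.7 in channel 2 and 81.8 to 88.9 in channel 1. No defining marker was listed at 0. The part of the mix of cells in the clock values was not tested.

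Heart and skeletal muscle and fat, which can be taken out with a lung, varied by array. The sum of 8 heart muscle markers was 37.2 to 50.1 in channel 1 on the OVA arrays, against 26.9 to 30.6 in channel 1 on the PBS arrays, and in channel 2 it was 25.1 to 28.4 in the OVA arrays and 14.8 to 45.2 in the PBS arrays. In the ratio 2 of the 8 were called lower and none higher, against 23% and 17.3% of all genes. With the OVA ratios turned 6 were called higher and none lower, against 22.5% and 16.5%. In channel 1 alone 7 were called higher and 1 lower, against 15.6% and 12%. The sum of 8 skeletal muscle markers was 34.6 in channel 1 of OVA array 2 and 1.05 to 1.91 in every other sample. The sum of 8 fat markers was highest in channel 1 of OVA array 4 (37.0) and channel 2 of PBS array 2 (20.7). None of these 16 was called in the ratio over all 9 arrays, against 40.3% of all genes. With the 3 arrays left out 2 of them were called, against 32%. The array where Dbp was highest, OVA array 3, had sums of 1.39 and 14.01 in channel 1 for the last 2 lists. Without OVA arrays 2 and 4 and PBS array 2, Cry1, Cry2 and Nr1d1 kept their calls, with log2 changes of -0.21, -0.79 and -1.11 and adjusted p of 0.018, 0.0106 and 0.0301.

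The genes most like Clock and Nr1d1, the members with the largest change in each arm, were ranked by the root mean square difference of their log2 ratios over the 9 arrays, among 25640 genes with values on all of them. Nearest to Clock were Zbtb46, Sqor, Lmtk2, Anxa3 and Nid1, at 0.045 to 0.061, against a median of 0.28 over all genes. Nearest to Nr1d1 were Hey1, Bpifb2, Hbb-bh2, 5830474E16Rik and Jup, at 0.17 to 0.20, against a median of 0.88. The 10 clock genes were left out of both rankings. Of them, those closest to Nr1d1 were Cry2 at 0.32 and Dbp at 0.34, and the one closest to Clock was Npas2 at 0.15.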

How the data were processed

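Total RNA of whole lungs (Trizol, 100 ng input, amplified in 2 rounds) was labelled with Cy3 in channel 1 and Cy5 in channel 2, per the labels' protocols, and the submitters' processing notes name Agilent Feature Extraction 8.5.1.1. How the authors corrected background and scaled the channels is not stated in the sources. The main deposited table holds, per the file headers, an intensity for each channel and a p-value for each probe and array. The deposited intensity values ran from 0.00055 to 70.2, most of them rounded to 0.01, and channel medians lay between 0.12 and 0.17. The deposited p-value was used only to count arrays. A second deposited table holds log10 ratios, which matched the log10 of channel 2 over channel 1 (99% of differences under 0.00048 on each array); their medians were 0, and nothing else gives their direction. The tables held 0 columns of other samples. Background, saturation, slide and scan date did not enter, so the precision rests on the 9 arrays alone.

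Symbols were updated with a RefSeq table (GRCm38.p6): 22962 probes had a current symbol, 3147 a synonym of 1 gene, 3996 kept the file's symbol, 11 were named by accession, 9317 had no name and 31 a symbol that had become a date. The probe of highest mean intensity stood for its gene. Log2 ratios of the 5 OVA and 4 PBS arrays were compared with limma 3.58.1 under R 4.3.3 (a moderated two-sided test by lmFit with eBayes, p adjusted by Benjamini-Hochberg over 25715 genes with at least 2 values in each group, adjusted p under 0.05, no covariates, no filter on dim probes). The test was tried on simulated data. Second probes were tested in a fit of all 39413 probes with enough values. Ratio correlations over the probes that stood for a gene were 0.75 to 0.87 between OVA arrays and -0.29 to 0.14 between PBS arrays. Nothing in the labels says that replicates are separate mice, so the p-values cover the spread between these arrays, which may be technical.

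The members and gene lists were chosen with earlier results of these data known. Named were the 10 clock genes with every probe, fixed genes of the secondary loops, up to 5 members past the threshold with the largest change in each other clock list, and the 5 genes most like the largest-change member of each arm; Clca1 is given for its channel levels only. Cipc, Tsc22d3 and the marker genes follow their lists. Single values of 2 list members are not reported here, and the counts of their lists include them. Alternatives covered the direction of the OVA ratios, each channel alone, normalisation, an added offset, probe choice, a filter on dim probes, the prior, array weights, the replicate number as a block and each array left out. Leaving out OVA arrays 2 and 4 and PBS array 2 together was added after seeing the data.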

Additional observations from a re-analysis of the deposited data

Results flagged for a closer look

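Among 20 sets of log2 ratios (10 clock genes in each of the 2 groups of arrays), 2 had a lowest array far from the others, and chance flags about 1 set in 20. The Clock ratio of PBS replicate 1 was -0.0911, with the other 3 PBS arrays above 0 and within 0.02 of each other; this gap made up 0.871 of the whole range. The Npas2 ratio of PBS replicate 3 was -0.15 and that of the other 3 PBS arrays was 0, a difference of 1 rounding step of 0.01.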

How the results depend on the processing

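With the OVA ratios turned in sign, the log2 changes became 0.28 (Arntl), 0.29 (Clock), 0.22 (Npas2), 0.0791 (Per1), 0.27 (Per2), 0.33 (Per3), 0.0827 (Cry1), 0.83 (Cry2), 1.15 (Nr1d1) and 0.94 (Dbp), and the arm difference -0.26. In channel 1 alone they were, in the same order, 0.42, 0.33, -0.10, -0.07, 0.42, 0.34, 0.22, 0.95, 1.06 and 0.83, and 3 clock genes were called. In channel 2 alone they were 0.12, 0.0106, -0.25, -0.11, 0.0729, 0.10, 0.0773, 0.13, -0.06 and -0.02, with 0 clock genes and 2 genes in all called by limma (930 at an unadjusted p under 0.05). Stricter rules left 3 clock genes with 7605 genes in all (adjusted p under 0.01) or 1 with 782 (at least 2-fold as well), and with the 3 arrays left out 3 clock genes and 8220 genes were called. Without single arrays, 4 to 5 clock genes and 9144 to 10155 genes were called, the arm difference was 0.08 to 0.37 (lowest without PBS 1, 0.08, and without OVA 3, 0.10), and the Per1 change was -0.0945 to 0.0342, reversed without OVA 3 (0.0342) and PBS 1 (0.0152). The numbers did not pair the arrays (correlations of -0.0529, -0.0344, -0.153 and 0.000216 over 4 pairs, and 0 OVA arrays closest to their own number), and the replicate block gave 7661 genes and 4 clock genes called, with Per3 gained and Cry1 and Npas2 lost. Cry1 also lost its call with loess (adjusted p = 0.12), with probes averaged (0.0539) and with the OVA arrays alone against 0 (0.0557), and Dbp gained one with the last 2 (0.0478 and 0.043). Cry2, Nr1d1 and Clock kept direction and call under the other normalisations, the offset, the filter, the prior, the weights and each array left out. The causes of these changes were not tested.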

Other observations

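Tsc22d3, a glucocorticoid-induced gene on the list of outputs and cofactors, did not pass the test (log2 change -0.28, adjusted p = 0.286), and its array order resembled that of Dbp. Its intensity was 3.04, 3.05, 2.93, 3.16 and 3.11 in channel 2 and 3.49, 3.96, 4.48, 4.16 and 3.06 in channel 1 of OVA arrays 1 to 5. In PBS arrays 1 to 4 it was 3.95, 2.26, 3.99 and 2.56 in channel 2 and 3.08, 3.01, 3.48 and 3.08 in channel 1. The high samples were channel 1 of OVA replicates 3 and 4 and channel 2 of PBS replicates 1 and 3.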
